A study of Homo sapiens with 12 samples.

Results

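The 10 genes described here belong to the integrated stress response and were measured in HEK293T cells given a lysosomal inhibitor, an iron salt, or both. They are ATF4, ATF3, ATF5, DDIT3, TRIB3, CHAC1, CEBPB, CEBPG, PPP1R15A and SESN2. They were taken from the deposited expression table by gene symbol. All 10 were found among 56337 distinct gene entries, and all 10 were among the 13682 entries tested, those that averaged 1 FPKM or more. FPKM is a fragment count scaled to transcript length and to library size, so levels can be compared roughly between genes and between libraries. The sum of FPKM per library was not constant, from 600261 to 651311.

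The cells were HEK293T, an embryonic kidney line that is wild type per the labels and grown in RPMI medium. Per the labels, 1 polyadenylated RNA library was sequenced per sample, with 3 libraries in each of 4 groups. Control cells received neither agent. BafA1 cells received 10 nM bafilomycin A1, which blocks the V-ATPase, the proton pump that acidifies lysosomes, for 24 h. FAC cells received 0.1 mg/ml ferric ammonium citrate, a soluble source of iron, in a 24 h preincubation. FAC+BafA1 cells received the iron salt first and then 24 h of BafA1. The labels number the replicates without saying that they were separate cultures, so every p-value rests on sample-to-sample spread that may be technical only.

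The integrated stress response starts when a kinase that senses stress phosphorylates the translation factor eIF2. Most protein synthesis then slows, while the ATF4 message is translated better, so that ATF4 activity is controlled largely by translation and only in part by its RNA level. ATF4 belongs to the bZIP family of transcription factors, which bind DNA as pairs, often with C/EBP proteins. It switches on genes for amino acid supply, further stress regulators and, through PPP1R15A, the phosphatase that ends the response. RNA levels do not show eIF2 phosphorylation or protein amounts.

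The 10 genes lie on 6 chromosomes in GRCh38 (GENCODE release 44). ATF4 is at chr22:39519695-39522683, ATF3 at chr1:212565334-212620777, ATF5 at chr19:49928702-49933935 and DDIT3 at chr12:57516588-57521737. TRIB3 is at chr20:362835-397559, CHAC1 at chr15:40952962-40956512 and CEBPB at chr20:50190830-50192668. CEBPG is at chr19:33373685-33382686, PPP1R15A at chr19:48872212-48876059 and SESN2 at chr1:28259518-28282491. DDIT3 is on the minus strand and the other 9 are on the plus strand. Most of these genes are compact: 9 of 10 span less than 34836 bases, the median of the 11569 protein-coding genes tested, and their own median span is 5192 bases. They have 1 to 10 exons in the canonical transcript, with a median of 3 against 9 for the coding genes tested.

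Start-site windows of these genes were searched on both strands for motifs that ATF4 and related factors are known to bind. RefSeq (GRCh38.p14) lists 19 windows for the 10 genes, each from 250 bases before to 50 after a start site. The C/EBP-ATF composite core, TGATGNAA, was present in 3 of the 19 windows (3 genes), against 3.62% of all 35116 windows and 1.56% of 9914 windows of genes tested, taking the first window listed for each such gene. The cyclic AMP response element, TGACGTCA, was present in 1 window, against 1.85% of all windows and 3.55% of those of genes tested. The AP-1 element, TGANTCA, was present in 3 windows (2 genes), against 7.71% and 3.92%. The ER stress element known as ERSE was in 0 of the 19 windows, against 0.08% and 0.14%. Each line gives the 30 bases around 1 match per gene in the direction of transcription, with the match in capitals, because these are the windows in which a listed motif was found. A match is a description of the letters and not a measured binding site.

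CHAC1, composite core in reverse, 209 bases before the start site, chr15:40953251-40953280, plus strand: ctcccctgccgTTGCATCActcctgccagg
CEBPG, composite core, 42 bases before its downstream start site, chr19:33374060-33374089, plus strand: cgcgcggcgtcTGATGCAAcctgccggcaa
ATF3, composite core, 191 bases before its upstream start site, chr1:212565205-212565234, plus strand: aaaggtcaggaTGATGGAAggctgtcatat
PPP1R15A, cyclic AMP response element, 58 bases before the start site, chr19:48872352-48872381, plus strand: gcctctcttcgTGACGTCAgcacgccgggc
DDIT3, AP-1 element, 241 bases before a start site, chr12:57520735-57520764, minus strand: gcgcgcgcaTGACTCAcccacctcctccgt
ATF5, AP-1 element, 188 bases before its most upstream start site, chr19:49928707-49928736, plus strand: ggagagtgctgTGACTCAtgctggactcta

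The file gives no read counts. From the steps between its lowest values, the depth was estimated at 34.0 to 37.8 M fragments per library, a rough figure. In libraries without FAC, 55.8% to 60.2% of the values used lay within 0.2 of a whole fragment. In libraries with FAC it was 71.4% to 74.5%, and the reason for that difference was not tested. At that depth the weakest member value stood for about 124 fragments (CHAC1) and the strongest for about 42861 (ATF4). Libraries with and without FAC were not filled alike: 627 gene entries were at 0 throughout the libraries with FAC while clearly filled in those without it, or the reverse. None of the 10 genes was among them, and the 2 comparisons of BafA1 within libraries alike in FAC do not cross that line. Of 10 markers chosen for a kidney-derived line with neural features, 8 reached 1 FPKM. Their summed level was 444 to 450.0 FPKM in control libraries and 780.1 to 804 in BafA1 libraries. It was 427 to 438 with FAC and 661 to 665 with FAC+BafA1, most of it from VIM, so that this sum moved with BafA1. Of 8 markers each for keratinocytes or HeLa cells, blood and fibroblasts, 0, 1 and 1 reached 1 FPKM, and 1 in each list was at 0 in every library. The keratinocyte sum was 1.78 to 2.67 FPKM in BafA1 and 0.63 to 1.43 elsewhere, the blood sum was 1.21 to 2.04 in all groups, and the fibroblast sum was 3.07 to 3.93 in BafA1 and 4.99 to 8.59 elsewhere. The part of these shifts in the results was not tested.

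The first comparison asked how these regulators responded when lysosomal acidification was blocked without added iron. Of the 10 genes, 9 rose with BafA1 and 0 fell (limma, Benjamini-Hochberg adjusted p under 0.05 over all 13682 genes), where 29.5% of all genes tested were called higher and 37.6% lower. For the same 9 genes every BafA1 library lay above every control library, which held for 30.4% of all genes tested. The median log2 change was 2.31 over the 10 genes and -0.04 over all genes tested. The 10 genes and the gene lists below were chosen with earlier results of these data known. Setting their counts against all genes is therefore a description and not an independent test. Each log2 change is a difference of log2(FPKM + 1) and so comes out too small for weak genes, and folds are ratios of mean FPKM. By log2 increase, ATF3 ranked 2 of all 13682 genes, DDIT3 ranked 10, PPP1R15A 15, TRIB3 25 and CHAC1 30. These ranks hold on that scale only. By ratio of means, genes such as FOS (100-fold) and ARC (82.8-fold), both under 1 FPKM in control, rose more than ATF3 (27.2-fold). So did C11orf96 (37.3-fold), at a mean of 1.23 FPKM in control. ATF5 did not pass the test. In bulk RNA, a strong rise in some cells and a weaker rise in all cells cannot be told apart.

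ATF4, the transcription factor at the centre of the response, was the most abundant of the 10 genes in every group. Its level was 498, 507 and 492 FPKM in the control libraries, 940, 944 and 882 with BafA1, 537, 538 and 513 with FAC, and 549, 566 and 564 with FAC+BafA1. The BafA1 libraries stood well above all others, and the other 3 groups lay close together in the order control, FAC, FAC+BafA1 without overlapping. ATF4 rose 1.85-fold with BafA1 (log2 0.88 ± 0.03, SE; limma adjusted p = 2.56e-10). After FAC the BafA1 change was 1.06-fold and did not pass (log2 0.08 ± 0.03, 95% interval 0.01 to 0.15, adjusted p = 0.0898), although it passed under quantile normalization (log2 0.15, adjusted p = 0.0085). FAC+BafA1 remained slightly above control, by a log2 of 0.16 ± 0.03 (adjusted p = 0.00126). Of 4 ATF4 pseudogene entries, none exceeded 0.65 FPKM in any library.

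ATF3, a bZIP factor of the same response that is also an immediate early gene, showed the largest change of the 10. It was at 18.4, 21.4 and 19.7 FPKM in control, 522, 565 and 531 with BafA1, 26.5, 25.7 and 26.6 with FAC, and 126, 121 and 119 with FAC+BafA1. The 4 groups did not overlap at any step of the order control, FAC, FAC+BafA1, BafA1. The increase was 27.2-fold without FAC (log2 4.70 ± 0.05, limma adjusted p = 3.16e-14) and 4.64-fold with FAC (log2 2.17 ± 0.05, adjusted p = 1.32e-10). By log2 increase, ATF3 still ranked 5 of 13682 genes in the comparison made with FAC. That rank too holds on the log2(FPKM + 1) scale only. By ratio of means, genes such as HSPB8 (9.21-fold) and ARC (8.89-fold), both under 1 FPKM with FAC alone, rose more. So did TNFRSF12A (6.6-fold) and C11orf96 (6.29-fold), at means of 4.12 and 1.13 FPKM with FAC alone. ATF3 was the one member called for FAC alone, 1.32-fold higher than control (log2 0.39 ± 0.05, limma adjusted p = 6.40e-05).

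DDIT3 encodes CHOP, a bZIP factor linked to cell death under prolonged stress. Its level was 8.36, 7.49 and 6.58 FPKM in control, 91.2, 92.9 and 86.0 with BafA1, 6.14, 7.49 and 6.78 with FAC, and 13.9, 14.1 and 12.8 with FAC+BafA1. Control and FAC overlapped, FAC+BafA1 lay above both, and BafA1 lay far above all. The rise was 12-fold without FAC (log2 3.43 ± 0.08, limma adjusted p = 1.12e-11) and 2.00-fold with FAC (log2 0.91 ± 0.08, adjusted p = 1.40e-05). DDIT3 overlaps MARS1 and MBD6 on the opposite strand, and whether the authors counted by strand is not given in the sources used here. In the order control, BafA1, FAC, FAC+BafA1, MARS1 was at means of 151, 226, 159.9 and 156 FPKM and MBD6 at 7.37, 10.3, 8.22 and 10.5. What these reads added to DDIT3 was not tested. A coding gene annotated on the same strand inside DDIT3 (ENSG00000285133, chr12:57517712-57520480) had no entry among the deposited values. Its part in the DDIT3 values was not tested either.

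The C/EBP factors, which pair with ATF4 on DNA, rose by more than ATF4 RNA and by less than ATF3 and DDIT3 on the log2 scale; these differences between genes were not tested. CEBPB, from a gene with a single exon, was at 4.04, 3.87 and 3.15 FPKM in control and 17.0, 16.2 and 20.7 with BafA1. It was at 3.25, 3.32 and 3.84 with FAC and 5.34, 5.00 and 4.37 with FAC+BafA1. Only the BafA1 libraries stood far apart; FAC+BafA1 lay just above the overlapping control and FAC groups. CEBPB rose 4.87-fold with BafA1 (log2 2.01 ± 0.10, limma adjusted p = 7.48e-09). With FAC the change was 1.41-fold (log2 0.40 ± 0.10, adjusted p = 0.0197). That last call was lost when weak genes were not filtered out (adjusted p = 0.0595), without FAC replicate 1 (0.0664) or 2 (0.0633), and without FAC+BafA1 replicate 1 (0.0757) or 2 (0.0614).

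CEBPG, a small C/EBP protein with no activation domain of its own, was at 22.1, 23.3 and 23.9 FPKM in control, 69.4, 71.7 and 71.5 with BafA1, 23.1, 22.6 and 23.7 with FAC, and 29.9, 29.4 and 28.8 with FAC+BafA1. Control and FAC overlapped, and the FAC+BafA1 libraries formed a distinct step above them. The rise was 3.07-fold without FAC (log2 1.58 ± 0.04, limma adjusted p = 1.12e-11) and 1.27-fold with FAC (log2 0.33 ± 0.04, adjusted p = 9.27e-05).

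ATF5, a bZIP relative of ATF4 whose message is likewise controlled by translation under stress, stayed in one narrow band. It was at 7.39, 6.67 and 7.69 FPKM in control, 6.65, 7.06 and 7.20 with BafA1, 7.27, 7.27 and 7.89 with FAC, and 6.93, 6.86 and 7.12 with FAC+BafA1. Neighbouring groups in the order of means overlapped throughout, although the FAC+BafA1 libraries lay just below the FAC libraries. The BafA1 change was -0.05 on the log2 scale without FAC (limma 95% interval -0.18 to 0.08, adjusted p = 0.503) and -0.09 with FAC (interval -0.22 to 0.04, adjusted p = 0.343). Both intervals leave out an increase of the size seen for ATF4, the smallest among the 9 genes that rose. ATF5 overlaps NUP62 on the opposite strand, at a mean of 49.4 FPKM in control and 54.1 in BafA1. It also overlaps a coding entry (ENSG00000269179) that was at a mean of 3.66 FPKM in control, 2.54 in BafA1 and 0 in both FAC groups, one of the entries filled differently, and its part in the ATF5 values was not tested.

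**Figure D1:**
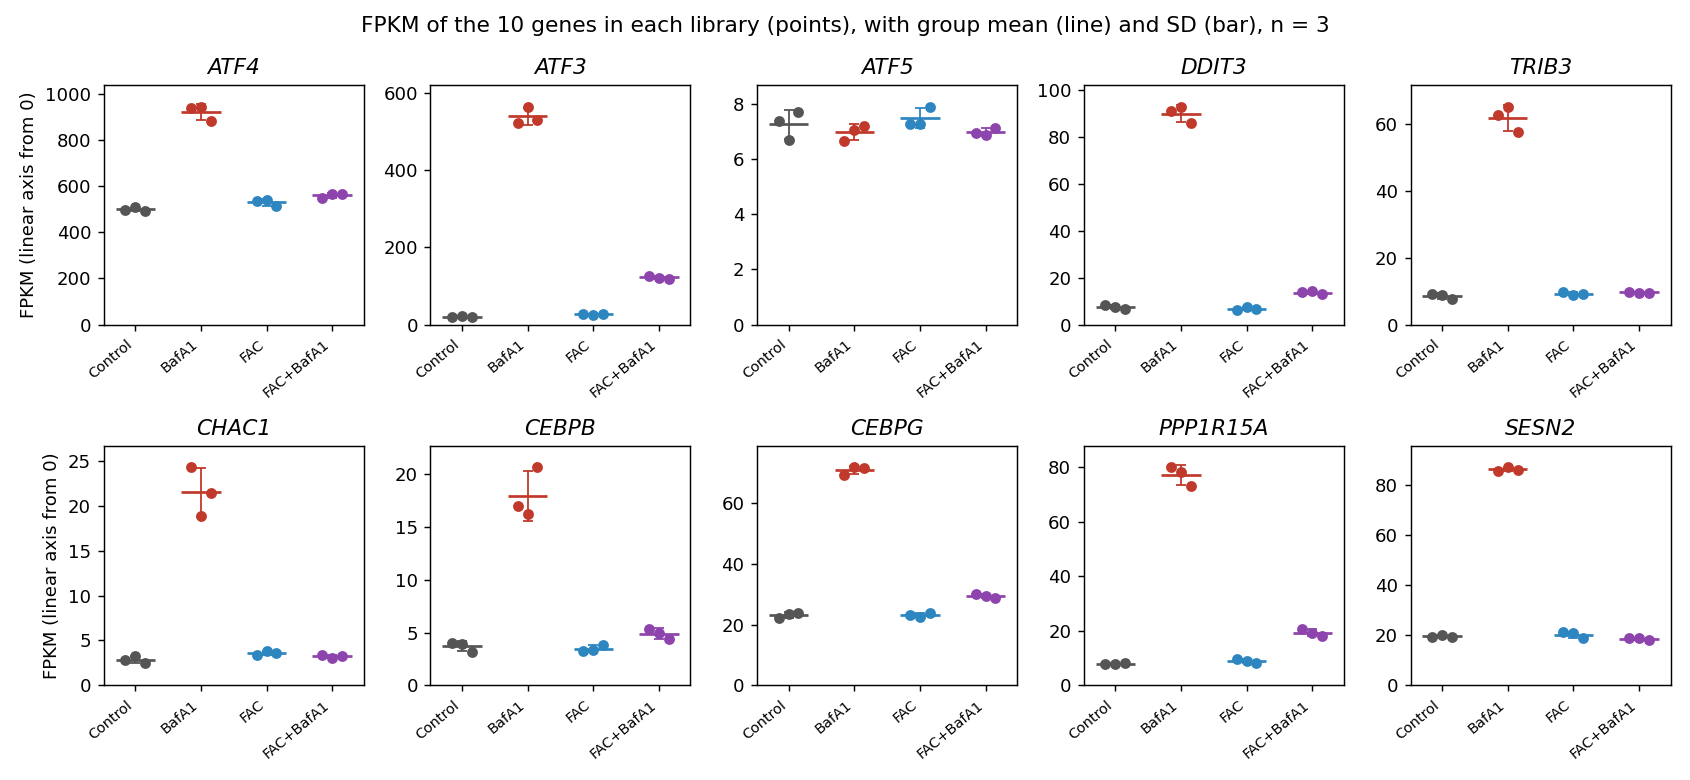
FPKM of each of the 10 genes (vertical axis, linear from 0, a different scale in each panel) in the 12 libraries by group (horizontal axis); points are libraries, lines are means of 3 libraries and bars are SDs. The 3 BafA1 libraries lie above all others in every panel except ATF5, where 12 values between 6.65 and 7.89 FPKM fill one band, and FAC+BafA1 forms a clear intermediate step for ATF3 at 119 to 126 FPKM.

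PPP1R15A and TRIB3 are feedback regulators. PPP1R15A, also called GADD34, brings a phosphatase to eIF2 and so reverses the block of translation. It was at 7.90, 7.86 and 8.12 FPKM in control, 80.0, 78.4 and 73.2 with BafA1, 9.58, 8.81 and 8.05 with FAC, and 20.6, 19.3 and 18.2 with FAC+BafA1. The order was control and FAC overlapping, then FAC+BafA1, then BafA1. The rise was 9.70-fold without FAC (log2 3.12 ± 0.06, limma adjusted p = 3.68e-12) and 2.20-fold with FAC (log2 1.05 ± 0.06, adjusted p = 4.67e-07).

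TRIB3, a pseudokinase that binds AKT and damps ATF4 and CHOP activity, was at 9.22, 8.82 and 7.57 FPKM in control and 62.8, 65.3 and 57.7 with BafA1. It was at 9.65, 8.93 and 9.16 with FAC and 9.75, 9.51 and 9.52 with FAC+BafA1. In the order control, FAC, FAC+BafA1 each group overlapped the next, while the FAC+BafA1 libraries lay just above all control libraries. TRIB3 rose 7.25-fold with BafA1 (log2 2.72 ± 0.07, limma adjusted p = 1.46e-11). With FAC its change was 1.04-fold and did not pass (log2 0.05 ± 0.07, 95% interval -0.10 to 0.19, adjusted p = 0.674).

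CHAC1 and SESN2 are effectors. CHAC1 breaks down glutathione, the main soluble antioxidant thiol. It was at 2.80, 3.29 and 2.49 FPKM in control, 24.3, 18.9 and 21.4 with BafA1, 3.38, 3.80 and 3.56 with FAC, and 3.34, 3.0 and 3.31 with FAC+BafA1. All BafA1 libraries were far above the rest, while FAC+BafA1 overlapped control and lay just below FAC. CHAC1 rose 7.53-fold without FAC (log2 2.54 ± 0.10, limma adjusted p = 5.15e-10). With FAC its change was -0.12 ± 0.10 on the log2 scale and did not pass (95% interval -0.33 to 0.09, adjusted p = 0.434).

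SESN2, a sensor that holds back the growth kinase complex mTORC1 when leucine is scarce, was at 19.3, 20.0 and 19.5 FPKM in control and 85.7, 87.1 and 86.1 with BafA1. It was at 21.2, 20.7 and 18.8 with FAC and 18.9, 18.8 and 18.0 with FAC+BafA1. BafA1 stood alone and the other groups lay within about 18.0 to 21.2 FPKM. Within that band every FAC+BafA1 library lay just below every control library, and FAC overlapped both. The rise was 4.40-fold without FAC (log2 2.08 ± 0.04, limma adjusted p = 4.82e-12). With FAC the change was -0.12 ± 0.04 (95% interval -0.21 to -0.02) and did not pass (limma adjusted p = 0.0868). SESN2 was called lower under quantile normalization (log2 -0.14, adjusted p = 0.0385) and without FAC replicate 3 (log2 -0.17, adjusted p = 0.0124).

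The second comparison set FAC+BafA1 against FAC, the response to BafA1 in cells preincubated with the iron salt. With FAC, 5 of the 10 genes rose with BafA1 (ATF3, DDIT3, PPP1R15A, CEBPG and CEBPB) and 0 fell, where 9.76% of all genes tested were called higher and 9.49% lower. The median log2 change was 0.20 over the 10 genes and 0.00 over all genes tested. ATF4, ATF5, TRIB3, CHAC1 and SESN2 did not pass.

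The interaction asked directly whether the BafA1 change differed with iron, with each change measured within libraries alike in FAC. For 9 of the 10 genes the change was smaller with FAC by the limma interaction test, where 20.6% of all genes tested had a called interaction in that direction and 29.5% in the other. The differences ran from -2.68 ± 0.09 for TRIB3 (adjusted p = 2.34e-09), -2.66 ± 0.14 for CHAC1 (adjusted p = 4.04e-08) and -2.53 ± 0.07 for ATF3 (adjusted p = 4.32e-10) to -0.80 ± 0.04 for ATF4 (adjusted p = 6.17e-08). For ATF5 it was -0.04 (95% interval -0.22 to 0.14, adjusted p = 0.723).

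The genes differed in how much of the BafA1 change was left with FAC. As a share of the log2 change without FAC, 46.2% was left for ATF3, 33.7% for PPP1R15A and 26.4% for DDIT3. The share was 20.8% for CEBPG, 19.9% for CEBPB and 9.1% for ATF4. It was 1.8% for TRIB3, -4.7% for CHAC1 and -5.5% for SESN2. Among all 386 genes that rose by at least 1 log2 unit with BafA1 the median share left was 23.4%, with quartiles of 7.1% and 39.7%. Among all 4039 genes called higher, the median was 20.0%, with quartiles of 0.7% and 42.9%. ATF3 lay above and CHAC1 and SESN2 below the quartiles of both sets, while TRIB3 lay below those of the first set only. Differences in this share between genes were not tested. The order of the 3 highest shares was the same with a pseudocount of 0.1 and with median-of-ratios or quantile scaling. Under quantile scaling the ATF4 share was 14.1%. Each of these settings keeps a log2 scale. The share of the rise in FPKM itself was not computed and may order the genes differently.

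**Figure D2:**
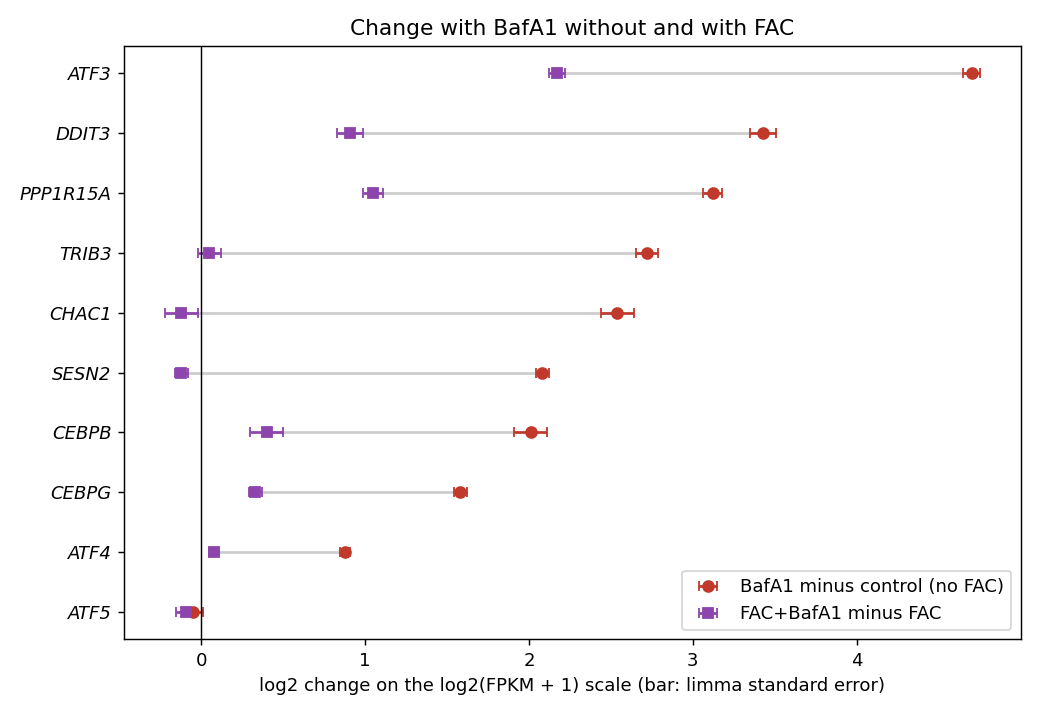
Log2 change with BafA1 (horizontal axis, on the log2(FPKM + 1) scale) for each of the 10 genes (vertical axis), without FAC (circles) and with FAC (squares); bars are limma standard errors. For 9 genes the square lies far to the left of the circle, near 0 for TRIB3, CHAC1, SESN2 and ATF4 and at 2.17 for ATF3, while both ATF5 points lie near 0.

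**Figure D3:**
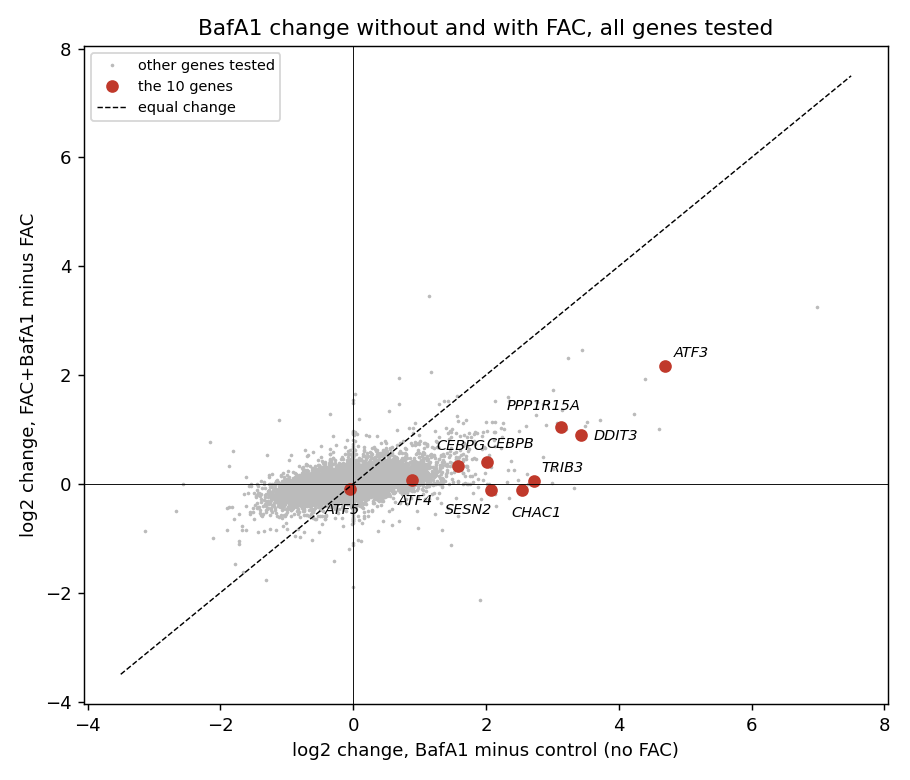
Log2 change with BafA1 without FAC (horizontal axis) and with FAC (vertical axis) for all 13682 genes tested (grey points) and the 10 genes (red); the dashed line marks equal change. All 10 red points lie below the line, ATF5 only just, and ATF3 is the highest of them at 4.70 without and 2.17 with FAC.

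Comparisons across FAC share groups with those above and set libraries with differently filled entries against each other. FAC alone was called higher for 1 of 10 genes, ATF3, where 4.72% of all genes were called higher and 4.84% lower. Differently filled entries can enter the shares given in this paragraph. Of these, 304 were at 0 without FAC and at 1 FPKM or more with it, and 323 were the reverse. Among 9655 genes averaging 5 FPKM or more, FAC gave 202 higher and 200 lower calls. How many calls came from differently filled entries was not counted. FAC+BafA1 against BafA1 was lower for 9 of 10 genes, where 29.1% of all genes were called lower and 38.8% higher. The ratio of means ran from 0.149 for CHAC1, 0.151 for DDIT3, 0.155 for TRIB3, 0.215 for SESN2 and 0.226 for ATF3 to 0.607 for ATF4. FAC+BafA1 against control was higher for 6 of 10 genes, where 16.2% of all genes were called higher and 16.6% lower. The ratios of these 6 were 6.14 for ATF3, 2.43 for PPP1R15A, 1.82 for DDIT3, 1.33 for CEBPB, 1.27 for CEBPG and 1.12 for ATF4. The CEBPB call was lost without control replicate 3 (adjusted p = 0.107), without FAC+BafA1 replicate 1 (0.102) or 2 (0.0771), and with no filter on low values (0.0501). TRIB3 was at 1.12 times control without being called (adjusted p = 0.0945), and was called without control replicate 1 (log2 0.21, adjusted p = 0.045). CHAC1 was also at 1.12 times control (log2 interval -0.08 to 0.34) and SESN2 at 0.947 times (interval -0.17 to 0.02), and neither was called.

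Upstream of ATF4 stands the machinery that phosphorylates and recycles eIF2. Of 26 listed genes of eIF2 kinases and translation control, 7 rose and 7 fell with BafA1 without FAC (median log2 0.02), or 14 rose with median-of-ratios scaling. Neither count of 7 stood above the shares over all genes tested, 29.5% higher and 37.6% lower, in the fit without rescaling. The count of 14 was not set against a share over all genes under its own scaling. EIF2AK3, which encodes PERK, the eIF2 kinase of the endoplasmic reticulum, was at 6.50, 7.07 and 5.80 FPKM in control, 31.1, 29.7 and 34.7 with BafA1, 5.42, 6.20 and 6.28 with FAC, and 11.6, 10.2 and 9.07 with FAC+BafA1. It followed the pattern of DDIT3, with a log2 change of 2.14 ± 0.09 without FAC (limma adjusted p = 1.73e-09) and 0.69 ± 0.09 with FAC (adjusted p = 0.000379). EIF2AK4, which encodes GCN2, the eIF2 kinase that senses uncharged tRNA, fell from 19.2 ± 0.891 to 12.2 ± 0.372 FPKM (SD, n = 3; log2 -0.62 ± 0.04, limma adjusted p = 1.22e-07).

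EIF2AK1, which encodes HRI, the heme-regulated kinase that also relays mitochondrial stress, was at 83.9 ± 5.33 FPKM in control and 83.4 ± 2.31 with BafA1 (SD, n = 3; limma adjusted p = 0.932). EIF2AK2, which encodes PKR, the kinase activated by double-stranded RNA, was at 20.1 ± 0.333 and 21.8 ± 1.11 (log2 0.11, limma adjusted p = 0.102). Its call depended on the scaling, since it was called higher under median-of-ratios scaling (log2 0.17, adjusted p = 0.0157), and also without FAC+BafA1 replicate 1 (adjusted p = 0.0437). DNAJC3, a co-chaperone known as an inhibitor of PERK and PKR, rose by 1.27 ± 0.04 log2 units and PPP1R15B, the constitutive partner of the eIF2 phosphatase, by 0.82 ± 0.03. OMA1, the mitochondrial protease that can pass stress to HRI, fell from 33.8 ± 1.03 to 18.3 ± 3.60 FPKM (log2 -0.87 ± 0.10, limma adjusted p = 9.89e-06). With FAC, 3 genes of this list of 26 rose and 8 fell (5 without FAC replicate 2, FAC+BafA1 replicate 1 or FAC+BafA1 replicate 2). Over all genes tested, 9.76% were called higher and 9.49% lower in that comparison.

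Other bZIP genes, the possible partners of ATF4, ATF3 and the C/EBP factors, rose widely. Of 40 tested from a list of 44, 30 rose and 6 fell with BafA1 without FAC (median log2 0.79). Over all genes tested, 29.5% were called higher and 37.6% lower. With FAC, 19 of the 40 rose and 2 fell (median 0.12), against 9.76% higher and 9.49% lower over all genes. The largest increases without FAC were in FOS (log2 4.60 ± 0.12), a subunit of AP-1, and MAFF (3.21 ± 0.10), a small MAF protein. FOSL1 (2.50 ± 0.11), another AP-1 subunit, and CREB5 (2.22 ± 0.06), a relative of ATF2, followed. CREB5 was at 7.39 ± 0.430 FPKM in control, 38.1 ± 0.990 with BafA1, 8.29 ± 0.546 with FAC and 17.9 ± 0.930 with FAC+BafA1 (SD, n = 3). With a mean of at least 5 FPKM, 2 fell without FAC, and with FAC 12 rose and 0 fell, because fewer genes of the list were tested.

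Known targets of ATF4 and CHOP were listed as an amino acid list and all others. Both lists were chosen with earlier results of these data known. The amino acid list held enzymes and carriers that supply amino acids. It also held the tRNA synthetases AARS1, GARS1, SARS1, WARS1 and NARS1 and the tRNA exporter XPOT. Of the 29 targets on that list, 26 rose and 1 fell with BafA1 without FAC (median log2 0.81). Under median-of-ratios or quantile scaling 0 fell. Over all genes tested, 29.5% were called higher and 37.6% lower. With FAC, 6 rose and 10 fell (median -0.08), or 6 fell without FAC+BafA1 replicate 2 or with no filter on low values. The shares over all genes with FAC were 9.76% higher and 9.49% lower. CTH, which makes cysteine, was at 15.9 ± 0.928 FPKM in control, 135 ± 2.64 with BafA1, 17.7 ± 0.479 with FAC and 21.5 ± 0.536 with FAC+BafA1 (SD, n = 3). SLC7A11, the cystine importer, was at 7.09 ± 0.242, 35.1 ± 0.686, 8.83 ± 0.618 and 6.41 ± 0.190 FPKM in the same order, so that BafA1 raised it without FAC (log2 2.16 ± 0.05) and lowered it with FAC (log2 -0.41 ± 0.05, limma adjusted p = 0.00029). The amino acid carriers SLC1A4 and SLC6A9 rose by 2.00 ± 0.10 and 1.93 ± 0.08 log2 units without FAC.

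Of 22 other targets tested from a list of 27, 18 rose and 3 fell with BafA1 without FAC (median log2 0.92). Over all genes tested, 29.5% were called higher and 37.6% lower. With FAC, 10 of the 22 rose and 3 fell (median 0.13), against 9.76% higher and 9.49% lower over all genes. GADD45A, a growth arrest gene, was at 9.20 ± 0.609 FPKM in control, 84.3 ± 3.42 with BafA1, 9.36 ± 0.634 with FAC and 21.7 ± 3.20 with FAC+BafA1 (SD, n = 3). CDKN1A, the p21 inhibitor of the cell cycle, was at 7.30 ± 0.340, 38.8 ± 1.60, 8.41 ± 0.0794 and 19.5 ± 0.638 FPKM in the same order. HERPUD1, which serves protein breakdown at the endoplasmic reticulum, was at 39.1 ± 1.81, 245 ± 13.5, 42.4 ± 0.257 and 48.1 ± 2.80. NUPR1, a small stress-induced chromatin protein, was at 0.540 ± 0.185, 5.80 ± 0.793, 0.737 ± 0.280 and 0.530 ± 0.234. GADD45A and CDKN1A were thus intermediate with FAC+BafA1, as ATF3 was, while NUPR1 with FAC+BafA1 overlapped control, as CHAC1 did. By the limma interaction test, the log2 change with FAC was below the log2 change without FAC for 27 of the 29 amino acid genes, 16 of the 22 other targets and 27 of the 40 bZIP genes, where 20.6% of all genes tested were called in that direction. Most genes on these lists had risen with BafA1, unlike most of all genes tested. Among all 4039 genes called higher with BafA1, the median share of the log2 change left with FAC was 20.0%. Whether these lists differed from other genes that rose was not tested. The difference between the amino acid list and the other targets was not itself tested.

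**Figure D4:**
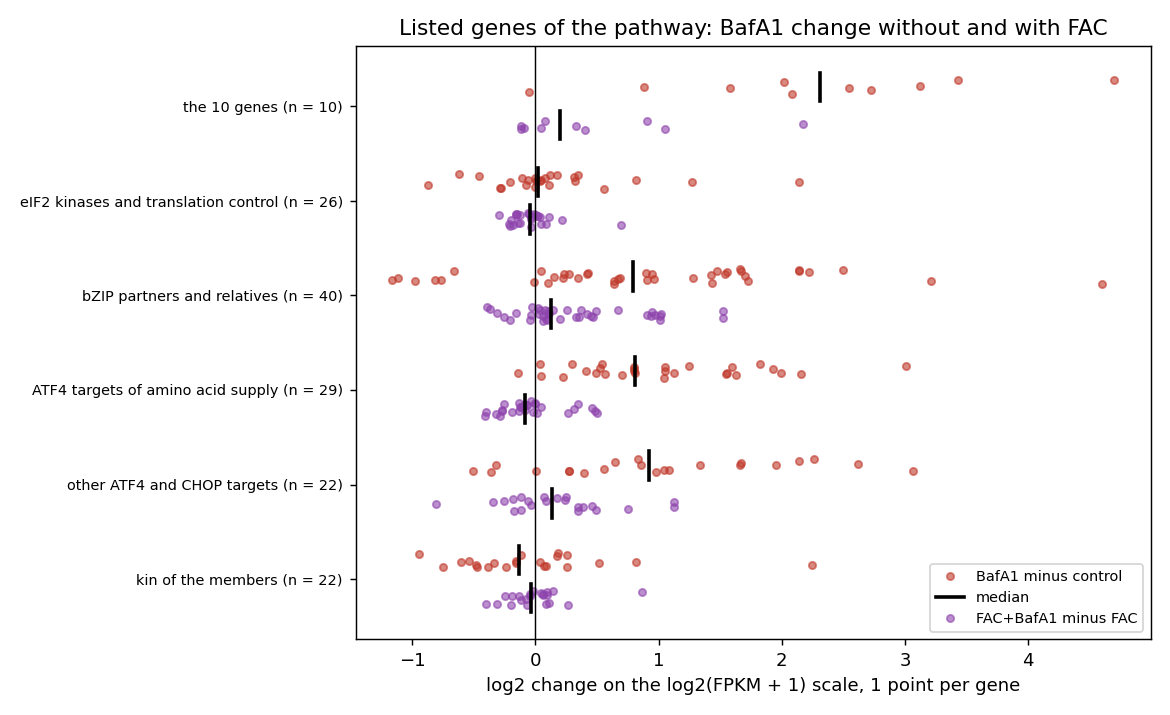
Log2 change with BafA1 (horizontal axis, 1 point per gene, on the log2(FPKM + 1) scale) without FAC (red, upper row of each pair) and with FAC (purple, lower row) for the 10 genes and 5 lists of related genes (vertical axis); black bars are medians. The medians without FAC are 2.31 for the 10 genes, 0.02 for eIF2 kinases and translation control, 0.79 for bZIP genes, 0.81 and 0.92 for the target lists and -0.14 for the kin of the 10 genes, and with FAC all lie between -0.08 and 0.20.

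Genes with the pattern most like that of ATF4 and of ATF3 were found by the root-mean-square difference of their log2 changes against control in the 3 treated groups, over all genes tested. Nearest to ATF4 were USP37, a deubiquitinase, TMED5, a cargo receptor of the early secretory pathway, NFKBIL1, SNAI2, a transcriptional repressor of epithelial genes, and RBM33, an RNA-binding protein, at differences of 0.012 to 0.019. Each was 0.85 to 0.91 log2 units above control with BafA1 and 0.15 to 0.18 above it with FAC+BafA1. Nearest to ATF3 were C11orf96, TNFRSF12A, a cytokine receptor, FOS, ARC, an immediate early gene, and HSPB8, a small heat shock protein, at larger differences of 0.515 to 0.853. FOS, ARC and HSPB8 were at 0.307, 0.277 and 0.453 FPKM in control, where log2(FPKM + 1) changes come out too small. By ratio of means, BafA1 raised ATF3 27.2-fold, FOS 100-fold, ARC 82.8-fold, C11orf96 37.3-fold, HSPB8 27.8-fold and TNFRSF12A 13.6-fold.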

How the data were processed

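The deposited values are FPKM per the file headers, 1 column per library, made by the authors with STAR and RSEM on GRCh38 per the submitters' processing notes (versions, annotation release, filters and strand setting: not given in the sources used here). Among 56340 entries, 3 all-zero repeats of another entry's ID were removed. Symbols came from a reference name table that matched 56104 of 56337 IDs. The deposited values were taken to the log2(FPKM + 1) scale as they stood, and the 13682 entries averaging 1 FPKM or more were tested. All 12 libraries were fitted in 1 model with limma 3.58.1 (R 4.3.3), a mean per group and an intensity trend; Benjamini-Hochberg adjustment covered all genes tested, with a threshold of 0.05. The procedure was tested on simulated data. FPKM are not counts, so count models were left out. The depth estimate used entries with 1 transcript and took fragments to be 150 bases long.

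The 10 genes and all lists were chosen with earlier results of these data known. The naming rule took the 10 genes, the 4 eIF2 kinases, up to 4 called genes per list with the largest BafA1 change, and the 5 nearest patterns to ATF4 and ATF3. Alternatives were another pseudocount, filters, scalings, no trend, groups fitted alone, a replicate block and each library left out.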

Additional observations from a re-analysis of the deposited data

Results flagged for a closer look

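For each gene in this paragraph the BafA1 change differed between cells with and without FAC by the limma interaction test (Benjamini-Hochberg adjusted p under 0.05); values are the log2 change with FAC minus the log2 change without FAC. Among the 10 regulators the difference was -0.80 for ATF4, -2.53 for ATF3, -2.52 for DDIT3, -2.68 for TRIB3 and -2.66 for CHAC1. It was -1.61 for CEBPB, -1.25 for CEBPG, -2.07 for PPP1R15A and -2.20 for SESN2. Of the eIF2 list, EIF2AK3 was at -1.45, DNAJC3 at -1.05 and PPP1R15B at -0.73, while OMA1 (0.58) and EIF2AK4 (0.46), which had fallen without FAC, were positive. Among bZIP genes, FOS was at -3.59, MAFF at -2.20, FOSL1 at -1.52 and CREB5 at -1.20. Among targets, CTH was at -2.74, SLC7A11 at -2.56, SLC1A4 at -1.65, SLC6A9 at -2.20, GADD45A at -1.94, HERPUD1 at -2.44, CDKN1A at -1.13 and NUPR1 at -2.33. Of relatives of the 10 genes, TRIB1 was at -1.38, DDIT4L at 0.69 and SESN1 at 0.36. Genes with a pattern like that of ATF4 were at -0.78 (USP37), -0.77 (TMED5), -0.82 (NFKBIL1), -0.78 (SNAI2) and -0.78 (RBM33). Those like ATF3 were at -2.47 (C11orf96), -0.99 (TNFRSF12A), -2.94 (ARC) and -0.92 (HSPB8).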

How the results depend on the processing

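The counts of the 10 genes called higher and lower in the 6 comparisons were recomputed under 238 alternatives and stayed within 1.5 times the reported count in 236. The exceptions were the genes called lower in FAC+BafA1 against FAC, 0 as reported, 1 under quantile normalization (SESN2) and 0 to 1 with 1 library left out at a time. Of 3007 recomputed log2 changes of named genes, 2958 kept their direction and their side of the threshold; the rest kept their direction. Those of the 10 genes stand beside their results; the others concern EIF2AK2 with BafA1, and OMA1, SLC1A4, SLC6A9, HERPUD1, EIF2AK4 and TMED5 in FAC+BafA1 against FAC, whose calls there are therefore not reported. The cause was not tested. For all genes, FAC against control gave 646 higher and 662 lower calls, 2245 and 2241 with no filter on low values and 202 and 200 at a mean of at least 5 FPKM, and FAC+BafA1 against control 2220 and 2278, or 3799 and 3844 with no filter. No clear pairing by replicate number was seen. Deviations from group means correlated at -0.074 to 0.138 (median 0.015) between libraries of the same number. Between libraries of different numbers they correlated at -0.15 to 0.116 (median -0.0145), and 5 of 12 libraries correlated best with their own number. With 3 libraries per group these values cannot exclude a pairing. With a replicate block, 9 of the 10 genes were called higher with BafA1 and 5 in FAC+BafA1 against FAC, the same counts as without it. The block ended 1 call among named genes, SLC6A9 in FAC+BafA1 against FAC (limma adjusted p = 0.0556). The interaction needs all 4 groups and was not fitted with groups alone. Depth limits the weakest genes most, such as FOS, MAFF and NUPR1 in control at under 1 FPKM.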

Other observations

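A list of 22 genes related to the 10 includes the other sestrins, tribbles and glutathione cyclotransferases and the regulators around mTORC1 that sestrin acts on. Of these, 7 rose and 10 fell with BafA1 without FAC (limma; median log2 -0.14), near the shares of 29.5% higher and 37.6% lower over all genes tested, and 1 rose and 2 fell with FAC. TRIB1, a tribbles pseudokinase related to TRIB3, rose from 7.20 ± 0.425 to 37.9 ± 2.30 FPKM with BafA1 and was at 7.67 ± 0.587 with FAC and 14.8 ± 0.544 with FAC+BafA1 (SD, n = 3). TRIB2, the third tribbles gene, fell by 0.60 on the log2 scale with BafA1 (limma adjusted p = 1.24e-05). SESN1, a p53-responsive sestrin, fell from 16.0 ± 0.655 to 9.11 ± 0.542 FPKM with BafA1, and was at 13.9 ± 1.30 with FAC and 10.3 ± 0.736 with FAC+BafA1. SESN3 fell by 0.47 on the log2 scale with BafA1 (limma adjusted p = 3.23e-05) and CHAC2, the constitutive relative of CHAC1, fell by 0.48 (adjusted p = 1.42e-07). DDIT4L, a relative of the mTORC1 inhibitor DDIT4, fell from 2.11 ± 0.265 to 0.617 ± 0.0723 FPKM. TRIB2, SESN3 and CHAC2 were named after their values were seen.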
